A study of Mus musculus with 12 samples.

Results

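The genes described here encode the BH3-only proteins on the nCounter Neuroinflammation panel, a probe set that counts mRNA molecules of 770 genes without amplification. They were chosen by name, with no measured value in the rule, and all 6 listed names were on the panel: *Bcl2l11* (BIM), *Bbc3* (PUMA), *Bid*, *Bad*, *Bik* and *Hrk*. The samples were microglia, the resident macrophages of the central nervous system (CNS), from C57B6 mice, with CNS of 1 male and 1 female in each sample. Aged mice were over 80 weeks old and adult mice 12 to 20 weeks old. Cells were enriched with CD11b beads, fixed and permeabilized, and microglia were gated as YFP positive, CD45 intermediate and Ly6G negative. Microglia of the aged mice were then sorted by the phosphorylation of ERK1/2 into P-ERK1/2High (4 samples) and P-ERK1/2Low (4 samples). Adult microglia (3 samples kept, with sample 11 excluded by its label for poor quality) were not separated by P-ERK1/2. The YFP accompanies an inducible Cre driven by the *Cx3cr1* promoter, which other CNS macrophages also use. The labels call the mice untreated, but the study describes both ages as given tamoxifen, recently in the adult and long before in the aged mice, so age and time since tamoxifen cannot be told apart. The labels give neither the genotype of these samples nor whether a P-ERK1/2High and a P-ERK1/2Low sample came from the same mice.

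BH3-only proteins start the mitochondrial route of apoptosis. They bind the pro-survival proteins of the BCL2 family in a groove, and some of them also activate the effectors BAX and BAK, which open the outer mitochondrial membrane and release cytochrome c. Growth factor signals restrain them in several ways: ERK1/2 phosphorylates BIM and marks it for degradation, AKT and protein kinase A phosphorylate BAD, and FOXO factors, which AKT keeps out of the nucleus, switch on *Bcl2l11* and *Bbc3*. All values below are mRNA levels and carry no information on those protein modifications.

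The promoters of the members are shown because transcription of *Bcl2l11* and *Bbc3* is the step that mRNA counts can follow. RefSeq (build GRCm38.p6) gave 9 windows of the 250 bases before a transcription start for 5 of the 6 members. *Bik* had no entry. In the sequences, read 5′ to 3′ on the gene's strand, capitals mark the forkhead core bound by FOXO factors (GTAAACA or its reverse complement) and the GC box bound by SP1 (GGGCGG or its reverse complement). The first *Bcl2l11* window (plus strand, chr2:128125788-128126037) held a forkhead core 227 bases before the start and GC boxes 211, 74 and 46 bases before it. The first *Bbc3* window (plus strand, chr7:16309333-16309582) and the *Bid* window (minus strand, chr6:120916825-120917074) held GC boxes only.
Bcl2l11: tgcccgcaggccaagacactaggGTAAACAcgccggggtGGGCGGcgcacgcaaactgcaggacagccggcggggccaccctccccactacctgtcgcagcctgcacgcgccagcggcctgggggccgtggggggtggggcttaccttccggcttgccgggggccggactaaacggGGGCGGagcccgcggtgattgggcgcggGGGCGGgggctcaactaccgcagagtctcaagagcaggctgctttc
Bbc3: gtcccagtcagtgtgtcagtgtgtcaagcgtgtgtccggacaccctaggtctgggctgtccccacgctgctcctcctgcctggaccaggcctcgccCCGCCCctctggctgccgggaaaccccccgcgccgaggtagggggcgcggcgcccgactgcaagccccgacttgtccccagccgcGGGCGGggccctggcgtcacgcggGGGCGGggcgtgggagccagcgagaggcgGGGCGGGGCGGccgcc
Bid: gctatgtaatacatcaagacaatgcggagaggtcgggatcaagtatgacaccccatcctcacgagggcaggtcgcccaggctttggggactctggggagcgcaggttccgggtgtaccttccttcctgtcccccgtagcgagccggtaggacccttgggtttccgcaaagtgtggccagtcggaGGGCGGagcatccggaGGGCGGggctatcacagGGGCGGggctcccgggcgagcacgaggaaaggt

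A second forkhead core lay before an alternative start of *Bbc3* (plus strand, chr7:16310084-16310110), shown here with its flanks.
Bbc3 alternative start: ctggcgggttTGTTTACaaacaatggg

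The forkhead core was thus found in 2 of the 9 windows, 1 of *Bcl2l11* and 1 of *Bbc3*, against 3.17% of 32851 RefSeq promoter windows of the same length and 2.5% of the 800 windows of panel genes. The GC box was found in 8 of the 9 windows, against 32.7% of all windows and 49.9% of those of panel genes. The GC content of the member windows ran from 62.8% to 81.6%, with a median of 52.4% over all windows. The AP-1 site (TGANTCA, both strands) was in 0 of the 9 windows and in 6.75% of all windows, and the p53 recognition decamer in 0 of the 9 and in 7.13% of all windows. Windows of 1 gene can overlap or share elements, and such a match describes letters in a window, not a bound site.

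The deposited values are probe counts multiplied by 1 factor per sample, so that the geometric mean of 13 housekeeping genes is 173 in each sample. Dividing by each sample's step gave back the counts, which summed to 137980 to 326575 for the kept adult samples, 123798 to 157209 for P-ERK1/2Low and 650965 to 1539936 for P-ERK1/2High. A count is called above background here if it exceeds the mean plus 2 SD of the sample's 8 negative control probes, which was 20.6 to 41.9 counts in every sample. After scaling, the mean of the negative controls stood at 14.3 ± 1.93 (SD, n = 4) in P-ERK1/2High, 35.5 ± 8.13 (SD, n = 4) in P-ERK1/2Low and 22.3 ± 7.72 (SD, n = 3) in adult, so the controls themselves were lower by 1.23 on the log2 scale in P-ERK1/2High than in P-ERK1/2Low (exact permutation test, two-sided p = 0.029, the smallest that 4 against 4 samples allow). Over all genes the median log2 fold change between the 2 aged groups was 0.26, and other scalings placed it between -0.11 and 2.15. Of the genes called, 74.6% were higher in P-ERK1/2High, and 51.5% to 100% were so under the other scalings. The summed level of the 9 microglia markers was 5747 to 6449 for adult, 5713 to 6296 for P-ERK1/2Low and 5808 to 8654 for P-ERK1/2High, but *P2ry12* and *Gpr34* did not pass background in any of the 4 P-ERK1/2Low samples. The sum hides opposite moves. Called higher in P-ERK1/2High than in P-ERK1/2Low were 5 of the 9 (*P2ry12*, *Tmem119*, *Itgam*, *Sall1* and *Gpr34*), against 28.2% of all genes. *Csf1r* was not called and lay at 1553 against 2745. Summed markers of some other cells were higher in P-ERK1/2High, while those of neurons, oligodendrocytes, B cells and neutrophils overlapped between the aged groups. The sum of 8 T and NK cell markers was 274 to 1091 in P-ERK1/2High, against 152.5 to 214 in P-ERK1/2Low, where none of the 8 was above background. That of 5 endothelium markers was 436 to 1015 against 161 to 234, with *Cldn5*, *Flt1* and *Emcn* called higher by the rule below and *Pecam1* and *Tie1* not called. That of 5 astrocyte markers was 1200.4 to 1925 against 546 to 792. Of the 5 astrocyte markers, *Gja1* (mean 877 against 343) and *Sox9* (544 against 147) were called higher in P-ERK1/2High by the rule below. The other 3 were not called and did not exceed background for P-ERK1/2Low, with means of 86.7 against 54.6 for *Aldh1l1*, 30.7 against 60 for *Slc1a3* and 35.6 against 48.7 for *S100b*. Most of the T and NK cell difference lay in *Cd3e* (357 against 21.8). Their part in the results below was not tested, and in such bulk samples fewer cells that express a gene and less RNA per cell cannot be told apart.

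To compare the aged groups, log2(value + 1) was fitted with limma over all 770 genes. A gene was called at p under 0.01 with a log2 fold change beyond 1. With the deposited scaling, 2 of the 6 BH3-only genes were called lower in P-ERK1/2High than in P-ERK1/2Low (*Bcl2l11* and *Bbc3*, of which *Bcl2l11* turned to 0.10 with positive-control scaling), 0 were called higher and 4 were not called. Without scaling 0 were called lower and 3 higher (*Bid*, *Bad* and *Hrk*), and with positive-control scaling 0 lower and 4 higher (*Bik* as well), so *Bbc3* lost its call too. At an adjusted p under 0.05 alone, the members were the same 2, against 52.2% of all genes. Over the panel 9.61% of the genes were called lower, 28.2% higher and 37.8% in either direction. The median log2 fold change of the 6 members was -0.32, against 0.26 over all genes. It takes in *Bbc3*, *Bik* and *Hrk*, whose values allow no fold between these groups, so it is no measure of the family. The median was 0.22 against 0.80 with the 6 most stable housekeeping genes and 1.32 against 1.86 without scaling. Without overlap between the groups were 2 of the 6 members, *Bcl2l11* and *Bbc3*, against 49.4% of all genes.

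**Figure D1:**
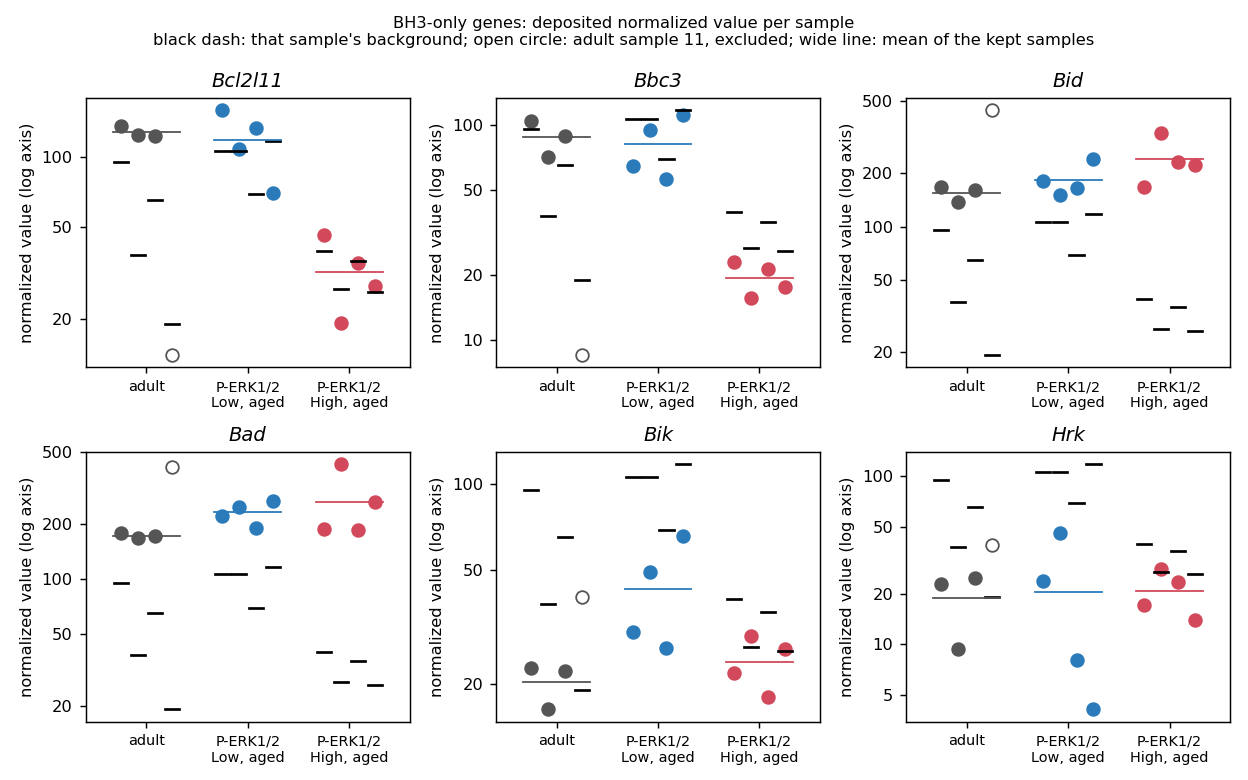
Deposited normalized value of each BH3-only gene (log axis) in every adult, P-ERK1/2Low and P-ERK1/2High sample, with the mean of the kept samples as a wide line, the sample's background as a black dash and the excluded adult sample 11 as an open circle. *Bcl2l11* and *Bbc3* lie lower in all 4 P-ERK1/2High samples (19.3 to 46.3 and 15.7 to 23.1) than in the other kept samples, at or near a background of 26.1 to 39.5 in those samples, while *Bid* and *Bad* are above background throughout.

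*Bcl2l11* encodes BIM, a BH3-only protein that binds all pro-survival family members and is the main death signal of blood cells deprived of growth factors. Its normalized values in P-ERK1/2High were 46.3, 19.3, 34.8 and 27.9 (samples 2, 5, 7 and 8). In P-ERK1/2Low they were 159, 109, 134 and 69.7 (samples 3, 6, 9 and 12), and in adult 136, 125 and 124 (samples 1, 4 and 10). The P-ERK1/2High samples were the 4 lowest of the 11, with no overlap, while the P-ERK1/2Low values lay on both sides of the adult ones.
The P-ERK1/2High mean was 32.1 ± 11.4 (SD, n = 4) and the P-ERK1/2Low mean 118 ± 38.1 (SD, n = 4), which differ by -1.85 on the log2 scale (SE 0.32, 95% interval -2.55 to -1.15, limma adjusted p = 6.0e-04). The exact permutation test gave a two-sided p of 0.029. By size of fall it ranked 4 of 770 genes. The counts behind these values were small: 38, 27, 31 and 22 in P-ERK1/2High, of which 2 were above background, and 47, 31, 50 and 17 in P-ERK1/2Low, of which 3 were. Before scaling, the counts of *Bcl2l11* differed by only -0.20 on the log2 scale between the groups (limma, unadjusted p = 0.60), and with positive-control scaling the sign turned (0.10), whereas the median gene was higher in P-ERK1/2High by 1.86 and 2.15 under these settings. Set against the median gene, *Bcl2l11* differed by -2.11 on the log2 scale with the deposited values, a difference that a factor per sample cannot change by much. Such a factor does not remove background, and the scaled negative controls themselves differed by -1.23, against 0.26 for the median gene. With a pseudocount of 20, *Bcl2l11* differed from the median gene by -1.56. With the mean of the negative controls subtracted the fold change was -2.21, and the call held.

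*Bbc3* encodes PUMA, the BH3-only protein that p53 and FOXO factors induce. Its values were 23.1, 15.7, 21.3 and 17.7 for the P-ERK1/2High samples, 64.4, 94.7, 56.2 and 111 for the P-ERK1/2Low samples and 104, 71 and 89 for the adult ones. The P-ERK1/2High samples again formed the low end, apart from all others. *Bbc3* passed the thresholds between the aged groups (limma adjusted p = 1.0e-04, exact permutation two-sided p = 0.029), but it was above background in none of these 8 samples, with 14 to 22 counts per P-ERK1/2High sample and 19 to 27 per P-ERK1/2Low sample. No fold is given for that comparison. Of the 73 genes above background in no sample of the aged groups, 56 had a lower scaled value in P-ERK1/2High and 4, *Bbc3* among them, were called lower. In the 3 kept adult samples the counts of *Bbc3* were 46, 61 and 36 and all above background.

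**Figure D2:**
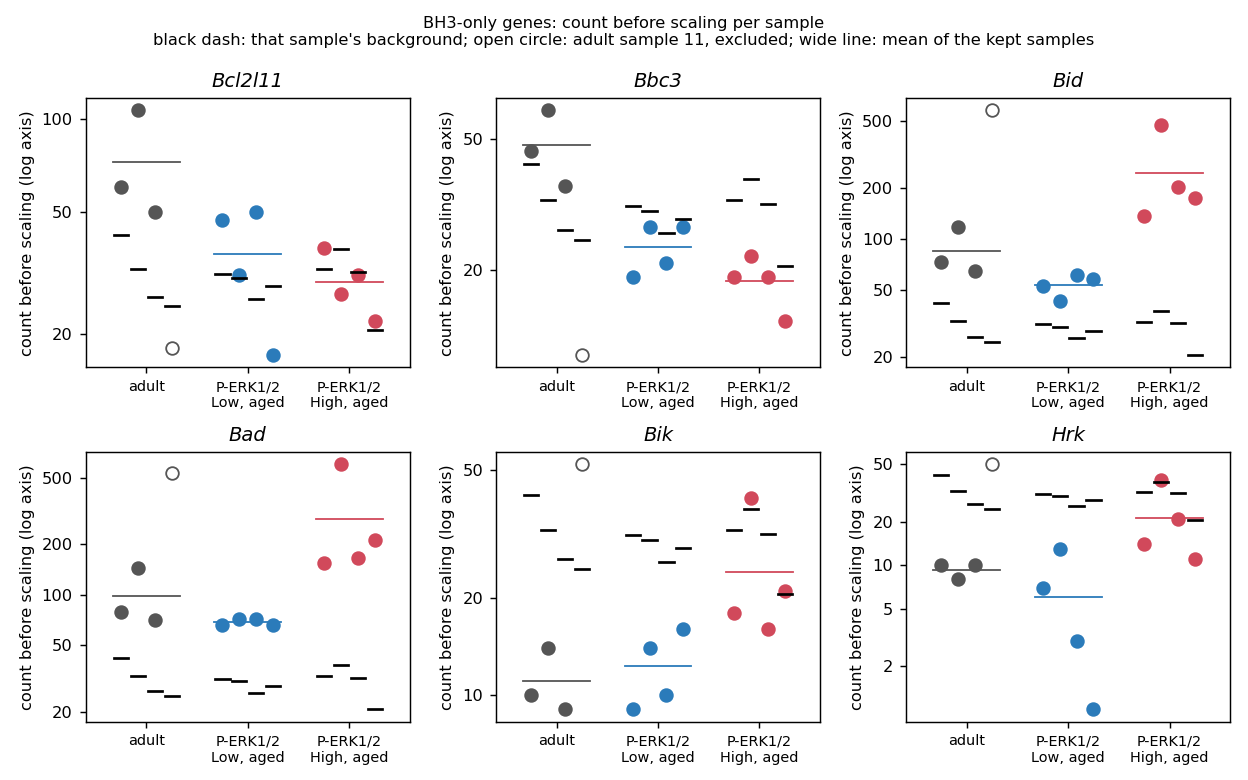
Counts before scaling of each BH3-only gene (log axis) in every sample, with the mean of the kept samples as a wide line, the sample's background as a black dash and adult sample 11 as an open circle. Counts of *Bcl2l11* and *Bbc3* run from 14 to 50 in both aged groups, close to background, whereas *Bid* and *Bad* reach 136 to 599 counts in the P-ERK1/2High samples against 43 to 71 in the P-ERK1/2Low samples.

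*Bid* encodes the BH3-only protein that caspase-8 cleaves, which links death receptors to the mitochondrion. It was above background in all 11 kept samples. Its values were 166, 335, 229 and 220 for the P-ERK1/2High samples, 180, 151, 163 and 238 for the P-ERK1/2Low samples and 166, 137 and 161 for the adult ones. Sample 5 of P-ERK1/2High was the highest, and the groups overlapped. The log2 fold change between the aged groups was 0.35 (SE 0.26, 95% interval -0.22 to 0.92, limma adjusted p = 0.27).

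*Bad* encodes the BH3-only protein that growth factor kinases hold in the cytosol by phosphorylation. It too was above background in all 11 kept samples. Its values were 189, 428, 185 and 267 for the P-ERK1/2High samples, 224, 249, 189.9 and 271 for the P-ERK1/2Low samples and 179, 169 and 173 for the adult ones. The aged groups overlapped over most of their range, with sample 5 again the highest. The log2 fold change was 0.12 (SE 0.29, 95% interval -0.51 to 0.75, limma adjusted p = 0.74), and its sign turned without sample 5 (-0.13), with median-of-ratios scaling (-0.13) and with quantile normalization (-0.25).

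*Bik* and *Hrk* encode BH3-only proteins of narrower distribution, and HRK is best known from neurons deprived of trophic factors. *Bik* values ran over 16.3 to 22.7 for adult, 26.8 to 65.6 for P-ERK1/2Low and 18 to 29.3 for P-ERK1/2High, and *Hrk* values over 9.32 to 24.7, 4.1 to 45.6 and 13.9 to 27.9. Above background were 2 P-ERK1/2High samples for *Bik* and 1 for *Hrk*, and no P-ERK1/2Low or kept adult sample for either. With the deposited scaling neither gene was called in any of the 3 comparisons, at 1 to 41 counts per kept sample. *Bik* was called higher in P-ERK1/2Low than in adult with quantile normalization, with the 10th percentile subtracted and without P-ERK1/2Low sample 9, though no sample of either group was above background.

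P-ERK1/2Low against adult sets a gated fraction of aged microglia against adult microglia that were not separated, so age and gate differ together and cannot be told apart, as in P-ERK1/2High against adult. In it 0 of the 6 members were called, against 10.8% of all genes (8.05% higher, 2.73% lower), and 0 had an adjusted p under 0.05, against 26.1%. Of the genes called, 74.7% were higher in P-ERK1/2Low, a share that ran from 3.33% without scaling to 74.7% over the scalings. *Bcl2l11* stood at 118 ± 38.1 (SD, n = 4) against 128 ± 6.98 (SD, n = 3), a log2 fold change of -0.18 (95% interval -0.80 to 0.44, limma adjusted p = 0.66). *Bid* differed by 0.22 (95% interval -0.21 to 0.66, limma adjusted p = 0.41). *Bad* was higher in every P-ERK1/2Low sample than in any kept adult sample, at 233 ± 34.7 against 174 ± 5.23, a log2 fold change of 0.41 (SE 0.16, limma adjusted p = 0.093) that did not pass the test. The signs of *Bid* and *Bad* turned without scaling (-0.62 and -0.44) and with positive-control scaling (-0.58 and -0.40). Without overlap were 2 of the 6 members, *Bad* and *Bik*, against 36.5% of all genes. *Bbc3* at 81.5 ± 25.6 against 88.1 ± 16.7 was above background in all 3 adult samples and in no P-ERK1/2Low sample, at a background that was higher in P-ERK1/2Low after scaling.

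In P-ERK1/2High against adult, *Bcl2l11* and *Bbc3* were called lower, 2 of the 6 members, against 7.66% of all genes called lower, 29.2% called higher and 36.9% called in either direction. The same 2 had an adjusted p under 0.05, against 48.2%. Of the genes called, 79.2% were higher in P-ERK1/2High, a share that ran over the scalings from 50.7% with quantile normalization to 99.8% with positive-control scaling. *Bcl2l11* was lower by a log2 fold change of -2.03 (SE 0.30, 95% interval -2.70 to -1.36, limma adjusted p = 3.7e-04, exact permutation two-sided p = 0.029). *Bbc3* was at least 2.71-fold lower (limma adjusted p = 1.1e-04), with the P-ERK1/2High samples set to their background. Neither was called without scaling or with positive-control scaling, where *Bcl2l11* differed by -1.22 and -0.87. *Bid* differed by 0.58 (95% interval -0.04 to 1.19, limma adjusted p = 0.11) and *Bad* by 0.53 (95% interval -0.17 to 1.23, limma adjusted p = 0.19), and both were called higher with the 6 most stable housekeeping genes (1.13 and 1.08), without scaling (1.39 and 1.35) and with positive-control scaling (1.74 and 1.70). The groups did not overlap for 3 of the 6 members (*Bcl2l11*, *Bbc3* and *Bad*), against 50.3% of all genes. This comparison shares its P-ERK1/2High samples with the first and its adult samples with the second. Sample 11, the excluded adult sample, had *Bcl2l11* at 13.96 and *Bbc3* at 8.53, below background and below every kept adult sample. With it among the adult samples, neither gene was called (-1.25 for *Bcl2l11*).

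**Figure D3:**
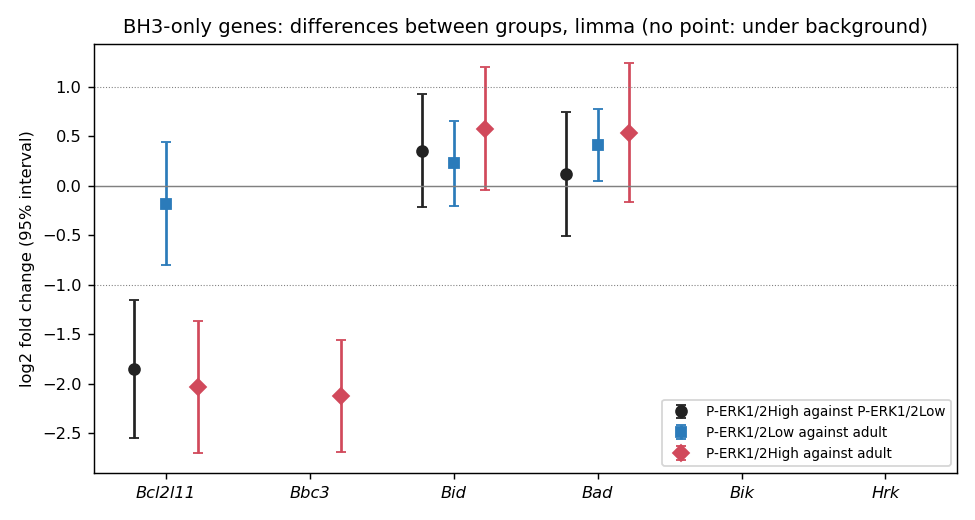
Log2 fold change of each BH3-only gene with its 95% interval (limma) in the 3 comparisons, with dotted lines at -1 and 1 and no point where background allowed no fold (for *Bbc3* against adult the point is the fitted value, with P-ERK1/2High under background). *Bcl2l11* lies near -2 against P-ERK1/2Low (-1.85) and against adult (-2.03), though its sign against P-ERK1/2Low turns to 0.10 with positive-control scaling, and the intervals of *Bid* and *Bad* reach across 0 in both comparisons of P-ERK1/2High.

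**Figure D4:**
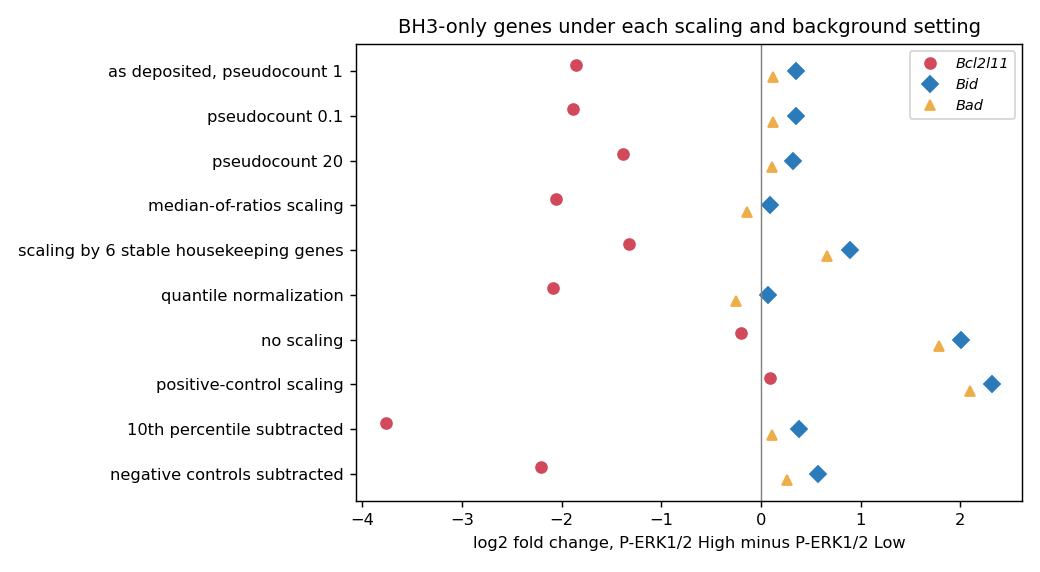
Log2 fold change, P-ERK1/2High minus P-ERK1/2Low, of *Bcl2l11*, *Bid* and *Bad* under each scaling and background setting. A factor per sample shifts the 3 genes together, so their order is kept by construction, and what the scalings move is the place of 0, with *Bcl2l11*, *Bid* and *Bad* at -1.85, 0.35 and 0.12 as deposited and at -0.20, 2.01 and 1.79 without scaling.

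BH3-only proteins act on the pro-survival family, so these genes were set beside them. Of the 4 pro-survival genes on the panel, 3 were called lower in P-ERK1/2High than in P-ERK1/2Low with the deposited scaling, against 9.61% of all genes, and 1 was not called. Without scaling the 3 were not called lower, and their sign turned. The median log2 fold change of the 4 was -1.17 with the deposited scaling, against 0.26 over all genes. *Bcl2a1a*, which encodes the inducible A1 protein of myeloid cells, fell from 2871 ± 165 to 1220.2 ± 260 (SD, n = 4 each, log2 fold change -1.26, limma adjusted p = 5.7e-04). *Bcl2l1*, which encodes BCL-XL, fell from 647 ± 79.7 to 289 ± 76.3 (log2 fold change -1.19), and *Bcl2l2* (BCL-W) from 159 ± 27.4 to 73 ± 25.8 (-1.16). *Bcl2* was at 108 ± 23.3 and 90.8 ± 11.9 and not called (0.24). The 3 falls turned in sign without scaling (0.42 to 0.50) and with positive-control scaling (0.73 to 0.81), and with the 6 most stable housekeeping genes none of the 3 was called (-0.71 to -0.62). *Bcl2l2* also lost its call without sample 5 of P-ERK1/2High (-0.99) and with a pseudocount of 20 (-0.97). In P-ERK1/2Low against adult 0 of the 4 were called, against 10.8% of all genes. In P-ERK1/2High against adult only *Bcl2l2* was called, as lower (-1.08), against 7.66% of all genes called lower. The *Bcl2l2* call was lost without adult sample 1 or 10 or P-ERK1/2High sample 5 (-1.10 to -0.92), with adult sample 11 (-0.70), with the 6 most stable housekeeping genes (-0.53), with a pseudocount of 20 (-0.90), with the 10th percentile subtracted (-1.46) and without scaling (-0.26), and the sign turned with positive-control scaling (0.08), where *Bcl2* was called higher (1.37). With median-of-ratios scaling *Bcl2l1* was called lower as well (-1.17), and with quantile normalization *Bcl2l1* (-1.56) and *Bcl2a1a* (-1.51).

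The difference in log2 level between a BH3-only gene and the mean of *Bcl2l1*, *Bcl2l2* and *Bcl2a1a* in the same sample does not change with that sample's scaling factor, apart from the small pseudocount. *Bid* and *Bad* were above background in every kept sample and could be compared in this way. This rule left out *Bcl2l11* and *Bbc3*, above background in 2 and 0 of the 4 P-ERK1/2High samples. The ratios therefore do not stand for the BH3-only genes as a set. For *Bid* this log2 ratio was -1.24, 0.53, -0.02 and -0.56 for the P-ERK1/2High samples, -1.80, -2.18, -1.88 and -1.64 for the P-ERK1/2Low samples and -1.66, -1.74 and -1.72 for the adult ones. For *Bad* it was -1.05, 0.89, -0.33 and -0.28 for the P-ERK1/2High samples, -1.48, -1.46, -1.66 and -1.46 for the P-ERK1/2Low samples and -1.54, -1.44 and -1.62 for the adult ones. All 4 P-ERK1/2High samples were above all other kept samples for both genes, with sample 2 the nearest to them and sample 5 the farthest. The mean difference between the aged groups was 1.55 for *Bid* and 1.32 for *Bad*. *Bcl2* was left out because it was not above background in every sample. The ratio was thus taken only to the 3 pro-survival genes called lower with the deposited scaling. How the mean difference divides between the BH3-only gene and the pro-survival genes depends on the scaling. *Bid* and *Bad* differed by 0.35 and 0.12 with the deposited values, where the 3 pro-survival genes were called lower, but by 2.01 and 1.79 without scaling, where those genes differed by 0.42 to 0.50. The exact permutation p was 0.029 for each, the smallest that 4 against 4 samples allow. Benjamini-Hochberg adjusted over the 6 ratios tested, it was 0.086 for each and did not pass at 0.05. The adjusted value is thus bounded by the number of samples and of ratios tested. Against adult the P-ERK1/2High ratios were higher by 1.38 and 1.34 (exact permutation, adjusted p = 0.086 each). P-ERK1/2Low and adult differed by -0.17 for *Bid* and 0.02 for *Bad* (exact permutation, adjusted p = 0.41 and 0.80).

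**Figure D5:**
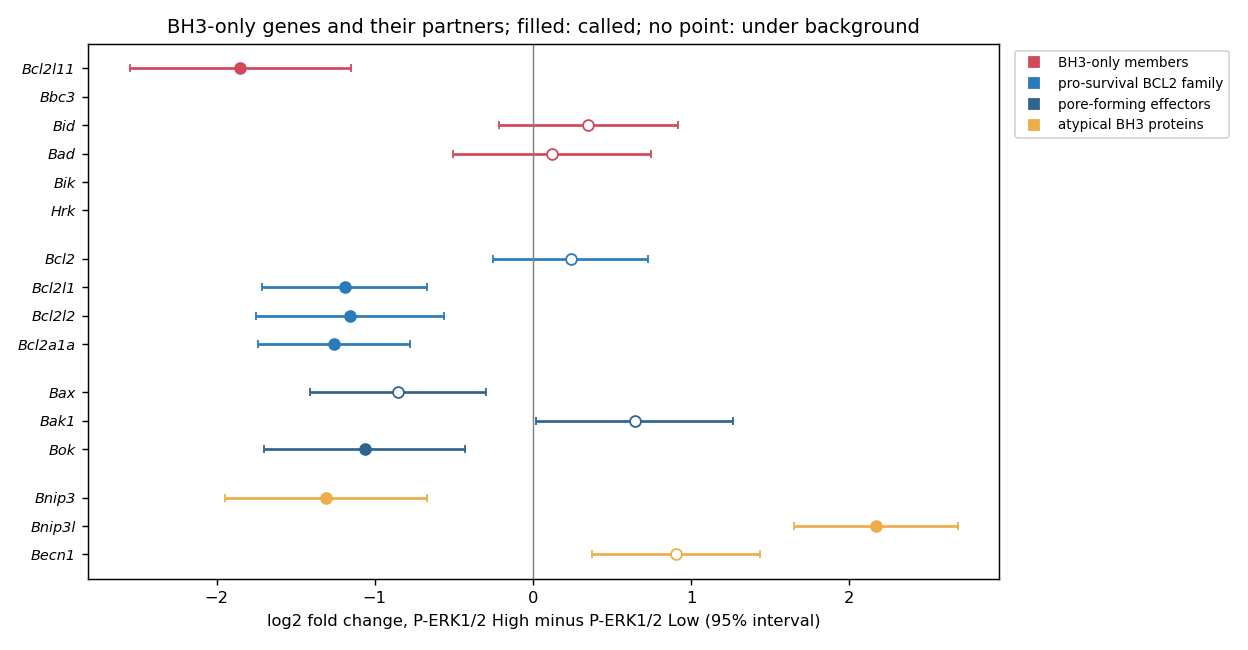
Log2 fold change with its 95% interval (limma), P-ERK1/2High minus P-ERK1/2Low, for the BH3-only genes, the pro-survival and effector genes of the BCL2 family and the atypical BH3 genes, with called genes filled and no point for *Bbc3*, *Bik* and *Hrk*, where background allowed no fold. With the deposited scaling, *Bcl2l11*, *Bcl2l1*, *Bcl2l2*, *Bcl2a1a*, *Bok* and *Bnip3* lie below -1, all of which turned positive with positive-control scaling, and *Bnip3l* lies above 1.

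Among the 3 effector genes, *Bok* was called lower in P-ERK1/2High (38.1 ± 17.8 against 76.3 ± 12.3, SD, n = 4 each, log2 fold change -1.06), with overlapping groups, 1 of 4 P-ERK1/2Low samples above background and a turned sign without scaling (0.57) and with positive-control scaling (0.87). It was not called without P-ERK1/2High sample 5, 7 or 8 or P-ERK1/2Low sample 12 (-1.03 to -0.93), with a pseudocount of 20 (-0.76), with the 6 most stable housekeeping genes (-0.53), after either background subtraction (-2.57 for the 10th percentile, -0.90 for the negative controls) or in 1 fit over all kept samples. *Bax* at 121 ± 34.5 against 213 ± 17.1 (-0.85) and *Bak1* at 1006 ± 407 against 608 ± 62.5 (0.64) were not called. *Bax* was called lower with median-of-ratios (-1.10) and quantile scaling (-1.20). With the 6 most stable housekeeping genes, without scaling and with positive-control scaling, *Bak1* was called higher. *Bak1* was called higher in P-ERK1/2High than in adult (1.26), but not with median-of-ratios scaling (0.88), quantile normalization (0.35), the 10th percentile subtracted (1.31), adult sample 11 included (0.70) or adult sample 10 left out (1.11). Of the 3 atypical BH3 genes, whose products act in mitophagy and autophagy, *Bnip3l* was called higher (1888 ± 452 against 412 ± 50.5, log2 fold change 2.17) and *Bnip3* lower (192 ± 64.2 against 455 ± 71.9, -1.31), and *Becn1* was not called (0.90). The sign of *Bnip3* turned without scaling (0.37) and with positive-control scaling (0.67).

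Of the genes that act downstream of the mitochondrion, *Birc3*, an inhibitor of apoptosis protein, was called higher, at 302 ± 90.1 against 94.1 ± 17.5 (SD, n = 4 each, log2 fold change 1.65). *Cycs*, which encodes cytochrome c, was above background in 2 P-ERK1/2High and no P-ERK1/2Low samples, so no fold is given. *Casp9*, the caspase of the apoptosome, was at 64.4 ± 18.5 against 162 ± 13.3 (-1.37), and its sign turned without scaling (0.29) and with positive-control scaling (0.60). *Xiap* (0.73) and *Birc2* (-0.13) were not called.

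Of 10 genes on the death receptor route to BID, 2 were called higher and 1 lower, against 28.2% and 9.61% of all genes, with a median of 0.09 against 0.26. *Tnfrsf10b*, the mouse TRAIL receptor, was at 979 ± 300.3 against 240 ± 52.5 (2.00), whereas its ligand *Tnfsf10* was above background in all 4 P-ERK1/2High and no P-ERK1/2Low samples. *Casp8*, the protease that cleaves BID, was at 142 ± 44.7 against 322 ± 37.5 (-1.23), positive without scaling (0.44) and with positive-control scaling (0.75), and -0.999 with P-ERK1/2High sample 5 left out, which lost the call. *Cflar*, which encodes the caspase-8 inhibitor FLIP, at 647 ± 142 against 326 ± 19.1 (0.96) fell just short of the fold threshold. Without P-ERK1/2High sample 2 or 8, 3 genes of this route were called higher, against 230 and 218 of 770 genes. *Fasl* was above background in no kept sample.

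Of 14 genes for factors and kinases known to act on BH3-only genes or proteins, 3 were called higher and 2 lower, also near those shares of all genes, with a median of 0.05. *Akt1*, whose product phosphorylates BAD and FOXO factors, was at 7270.0 ± 710.2 against 1432 ± 216 (2.35), and *Ppp3r1*, the regulatory subunit of calcineurin, which dephosphorylates BAD, at 1924 ± 906 against 341 ± 22 (2.39). *Trp73*, a p53 relative, was at least 1.26-fold higher. *Akt2* (-1.29) and *Prkaca*, the catalytic subunit of protein kinase A (-1.50), were called lower, and both turned positive without scaling (0.38 and 0.18) and with positive-control scaling (0.69 and 0.49). *Trp53* was at 115 ± 21.6 against 226 ± 36.2 (-0.96) and not called. Without P-ERK1/2High sample 2 or 8 or P-ERK1/2Low sample 6, 3 regulators were called lower. The same number was called lower with median-of-ratios scaling, quantile normalization and the 10th percentile subtracted, and 0 with the 6 most stable housekeeping genes. In P-ERK1/2Low against adult, 0 genes of the effector, atypical BH3, death receptor and regulator lists were called, with medians of 0.09 to 0.63 against 0.10 over all genes. In P-ERK1/2High against adult, 1 effector gene was called higher and 0 lower, 2 atypical BH3 genes higher and 1 lower, 3 death receptor genes higher and 1 lower, and 4 regulators higher and 1 lower, against 29.2% and 7.66% of all genes. Leaving out 1 sample at a time gave 0 to 1 effector, 1 to 2 atypical BH3, 1 to 2 death receptor and 2 to 4 regulator genes called higher and 0, 0 to 1, 0 to 1 and 0 to 2 called lower, with the fewest death receptor genes (1 higher, 0 lower) without adult sample 1 or 10.

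By Pearson correlation of log2(value + 1) over the 11 kept samples, the panel genes most like *Bcl2l11* were *Csnk2a2* (r = 0.95, a housekeeping gene of the panel), *Pex14* (0.95) and *Eed* (0.94). Among those most like *Bbc3* were *Grn* and *Nfkb2* (0.95 each). Among those most like *Bid* were *Fgd2* (0.91) and *Atr* (0.90), and *Bad* was most like *Mbd3* (0.94), *Cdkn1c* (0.93) and *Prkacb* (0.92). The samples share their scaling factors and fall into groups, *Bbc3* and *Fgd2* were above background in 3 of the 11 samples and *Cdkn1c* in 4, and these values are a description only.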

How the data were processed

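Samples were grouped by their labels. The authors counted mRNA on the NanoString nCounter Neuroinflammation panel and normalized in nSolver (version not given in the sources used here). The deposited table holds the normalized signal, in which each gene count was multiplied by 1 factor per sample, with unscaled counts of 8 negative and 6 positive control probes. Gene counts were recovered by dividing by each sample's step, and 99.8% of them were whole within 0.1. Background was the mean plus 2 SD of a sample's negative controls. Of the 770 symbols, 763 matched RefSeq symbols and 7 synonyms. The 2 groups of each comparison were fitted in limma 3.58.1 (R 4.3.3) on log2(value + 1) without a filter, with Benjamini-Hochberg adjustment over 770 genes, after tests on simulated data. Fold changes are on that scale, and the added 1 shrinks those of low genes. The scaled negative controls differed by -1.23 between the aged groups, so a fall of a low gene there need not be understated. Adult sample 11, excluded by its label, entered only as an alternative. Named genes were the members, their pathway lists and the 3 most correlated genes. Some of these genes are not reported here. The members and lists were chosen with earlier results of these data known. Each sample pools 2 mice, nothing says which samples were prepared together, and p-values measure the spread between these samples only. Alternatives were the pseudocount, a filter, 5 other scalings (1 of them, and 1 background subtraction, chosen after seeing the data), another background subtraction, 1 fit over all samples, an adjusted p under 0.05 as the call rule, and leaving out each sample. A fold against a group with no sample above background is a bound with that group at its background or its own value, whichever was higher.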

Additional observations from a re-analysis of the deposited data

Results flagged for a closer look

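Adult sample 11, which its label excludes for poor quality, was kept out of every comparison as reported and entered only as a named alternative, and 4 BH3-only genes were above background there and above every kept adult sample. *Bid* was at 446.78 normalized units against 137 to 166 in the kept adult samples, and *Bad* at 413.43 against 169 to 179. *Bik* was at 40.33 and *Hrk* at 38.78, while both were above background in no kept adult sample. The log2 ratio to the pro-survival genes was 0.98 for *Bid* and 0.87 for *Bad* in this sample. Its counts summed to 1464433, and the geometric mean of its positive controls was 286, the lowest of the 12 samples. The part of RNA quality in these values was not tested.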

How the results depend on the processing

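Counts below are genes called, then BH3-only genes called, and other values are log2 fold changes or ratios. The P-ERK1/2High against P-ERK1/2Low count of 291 genes was 596 without scaling and 659 with positive-control scaling, which called 4 members, all higher. There *Bcl2l11* was 0.10 and *Bik* 1.15, and without scaling *Bik* was 0.85. *Bik* was 0.46 with negative controls subtracted, *Hrk* -0.96 with the 10th percentile subtracted, and *Bad* -0.13 with median-of-ratios and -0.25 with quantile scaling. Against adult, the P-ERK1/2Low count of 83 genes was 240 without scaling, 226 with positive-control scaling and 34 with adult sample 11. Quantile scaling and subtracting the 10th percentile each called 1 member higher (*Bik*), and no scaling called 1 lower (*Bcl2l11*, -1.01), against 0. *Bid* was -0.62, -0.58 and -0.16 without scaling, with positive controls and with sample 11, and *Bad* -0.44 and -0.40 under the first pair. With sample 11 *Bcl2l11* was 0.60 and *Bbc3* 0.65. *Hrk* was 1.59 and 0.74 under the 10th percentile and negative-control subtractions. Values of *Bbc3*, *Bik* and *Hrk* here rest on samples under background and are no folds. The P-ERK1/2High against adult count of 284 genes was 49 with sample 11, and the 2 members called became 0 with sample 11, 1 with a mean of at least 50 or the 10th percentile subtracted and 4 with the 6 stable housekeeping genes, while without scaling and with positive-control scaling the 2 called were *Bid* and *Bad*, higher. *Bik* and *Hrk* were -0.14 and -0.17 with median-of-ratios and -0.029 and -0.097 with sample 11. The *Bad* ratio was -0.0072 with pseudocount 20 and -0.58 with sample 11 for P-ERK1/2Low against adult, and 1.56 with quantile scaling for P-ERK1/2High against adult.

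Leaving out 1 sample at a time, *Bad* ranged from -0.13 to 0.27 and *Hrk* from -0.062 to 1.002 between the aged groups. P-ERK1/2Low against adult gave 0 to 1 members, *Bcl2l11* -0.35 to 0.048, *Bbc3* -0.31 to 0.011 and *Hrk* -0.82 to 0.24, and P-ERK1/2High against adult gave *Hrk* -0.24 to 0.42. The ratios ranged from 1.27 to 1.86 (*Bid*) and 0.96 to 1.61 (*Bad*) between the aged groups, and from -0.023 to 0.068 (*Bad*, P-ERK1/2Low against adult). The causes were not tested. Positive-control scaling and negative-control subtraction were chosen after seeing the data. No paired analysis was possible because the groups share no sample numbers. The planned quasi-likelihood count tests were not run. Background limits *Bcl2l11*, *Bbc3*, *Bik* and *Hrk* most, since their counts lay near or below it in many samples.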
